A study of Homo sapiens with 30 samples.

Results

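The IL-6 family of cytokines and its signalling route was followed through 8 genes in hCMEC/D3 cells, an immortalised human brain microvascular endothelial line grown in culture to stand in for blood-brain barrier endothelium. The genes were the ligands IL6, LIF and IL11, the receptor chains IL6ST, LIFR and OSMR, the transcription factor STAT3 and the inhibitor SOCS3. They were taken by symbol from a table of 63138 genes, and all 8 had enough counts to be tested in every comparison. RNA was sequenced in 30 libraries, 10 groups of 3. In 5 direct groups the cells spent 12 h in serum-free medium, either without addition (Control) or with a stimulus. The TNF group received 25 ng/mL of tumour necrosis factor alpha, and the IL1b group 10 ng/mL of interleukin 1 beta. C5a, a peptide released from complement, was given at 50 ng/mL, and the adrenergic hormone in the Epinephrine group at 200 nM. In 5 vesicle groups, also labelled 12 h, cells of the same line received extracellular vesicles that had been enriched from the supernatants of cells treated in these ways (EV-Control for vesicles of unstimulated cells, and EV-TNF, EV-IL1b and likewise for the others). The labels give no vesicle dose. All libraries come from 1 cell line, and the labels do not say that the replicates were separate cultures, so a p-value here measures the spread between these libraries, which may be technical. In bulk RNA, a change in the share of cells that express a gene and a change in RNA per cell cannot be told apart.

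Most cytokines of this family bind a ligand-specific receptor chain and then engage gp130, the shared signalling chain encoded by IL6ST. The receptor's bound kinases (JAK1, JAK2 and TYK2) phosphorylate STAT3, which enters the nucleus and raises target genes, among them SOCS3, whose product binds gp130 and dampens the signal. Cells with little IL-6 receptor on their membrane can respond to IL-6 through the receptor's soluble form, and brain endothelial cells are a known source of IL-6 during inflammation.

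Library totals ran from 16643961 to 22112326 counts, and 14340 to 15196 genes had at least 10 counts in a library. All 10 endothelial marker genes were detected, with a summed level of 609 to 1051 CPM (counts in proportion to the library total times its scaling factor), although EMCN had at most 13 counts in a library. Of 6 pericyte and smooth muscle markers, CSPG4 (251 to 441 CPM) and PDGFRB (34.4 to 88.7 CPM) were expressed in every library, while RGS5 (4.4 to 11.3 CPM), ACTA2 (1.61 to 3.57 CPM) and MYH11 (0.644 to 1.99 CPM) were low and DES had 0 to 5 counts. The lists for astrocytes, leukocytes, epithelium and neurons summed to 0.418 to 6.67 CPM, and AQP4, SLC1A2, AIF1, CX3CR1, MS4A1 and STMN2 had no more than 3 counts anywhere. The summed endothelial markers moved with the groups, from 952 to 995 CPM in Control and 1002 to 1051 in TNF to 609 to 654 in EV-Control, and the summed pericyte and smooth muscle markers lay at 371 to 423, 465 to 485 and 418 to 438 CPM in the same groups. The part of these shifts in the results was not tested. Epinephrine library 2 stood apart from the other libraries of its group, with a chi-square of the counts, divided by the number of genes, of 12.9 and 10.1 against them (about 1 would be sampling noise), and EV-Control libraries 1 and 3 differed by 10.1. The other pairs of replicates lay between 2.04 and 5.96.

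Promoter sequences are shown for IL6 and IL11, the 2 ligands whose windows held matches to inducible-factor motifs, because the group means of the ligands spanned more than those of the receptor chains. They come from RefSeq (GRCh38.p14), whose promoter table held 7 of the 8 genes, LIF not among them. Positions count back from the RefSeq start site, and sequences run 5′ to 3′ on the gene's strand. Capitals mark TGACG, the core of the cAMP response element (CGTCA on the other strand), the AP-1 site TGANTCA or the NF-kappaB consensus. The IL6 window lies at chr7:22726950-22727146 on the plus strand and stops 53 bases short of the RefSeq start site, where exons of other annotated IL6 transcripts begin.
IL6: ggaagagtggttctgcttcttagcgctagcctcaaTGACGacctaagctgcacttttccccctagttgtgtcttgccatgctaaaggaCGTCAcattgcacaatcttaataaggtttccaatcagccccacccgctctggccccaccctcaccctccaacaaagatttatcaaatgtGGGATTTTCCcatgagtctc
The IL11 window lies at chr19:55370464-55370713 on the minus strand.
IL11: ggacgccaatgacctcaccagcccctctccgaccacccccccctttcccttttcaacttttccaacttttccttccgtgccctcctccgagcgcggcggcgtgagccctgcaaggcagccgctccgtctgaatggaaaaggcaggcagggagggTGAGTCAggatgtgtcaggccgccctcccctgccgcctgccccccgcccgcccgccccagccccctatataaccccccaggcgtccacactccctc
In IL6 the core matches stood at -215 to -211 and, on the other strand, at -162 to -158, and the NF-kappaB match GGGATTTTCC at -73 to -64. IL6 also held the C/EBP consensus TTNCNNAA, not capitalised, at -155 to -148. In IL11 the AP-1 match TGAGTCA stood at -96 to -90. Matches were not particular to the ligands. IL6ST held the NF-kappaB consensus at -53 to -44 and STAT3 held TGACG at -116 to -112. The STAT site TTCNNNGAA stood at -165 to -157 and at -182 to -174 before different LIFR start sites. Of all promoters 6.57% held this STAT site and 33.2% the C/EBP consensus. Over 250 bases upstream of 35116 promoters, searched on both strands, 21.2% held TGACG, 1.65% the full element TGACGTCA, 6.57% TGANTCA and 9.96% the NF-kappaB consensus. A match describes letters only. No binding was measured in these samples.

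TNF raised all 8 genes and IL1b all but LIFR, while C5a lowered the ligands IL6 and LIF. A gene is said to have risen or fallen where its adjusted p was under 0.05 (quasi-likelihood test of edgeR, Benjamini-Hochberg adjustment over all genes). All 8 genes rose with TNF, where 27.5% of the 15908 genes tested rose and 25.3% fell. With IL1b 7 of 8 rose, against 24% of all genes rising and 22.6% falling. Epinephrine raised 5 of 8, against 13.5% higher and 11.8% lower. Without Epinephrine library 2 the count was 6, with IL6 at 1.60, LIF at 0.81, IL11 at 1.67, LIFR at 0.48, OSMR at 0.28 and IL6ST at 0.12 on the log2 scale. C5a lowered 2 of 8, IL6 and LIF, against 11.8% higher and 10.8% lower. The median log2 fold change of the 8 genes was 1.51 with TNF, 0.69 with IL1b, 0.28 with Epinephrine and -0.03 with C5a, beside -0.01, -0.01, 0.01 and -0.00 over all genes. These comparisons share the 3 Control libraries. Scaling by library totals moved the median of all genes with TNF to -0.29, so values here are relative to the trimmed-mean scaling. It also turned the share of calls that were higher from 52.1% to 22.7% with TNF and from 51.5% to 38.6% with IL1b, while all 8 genes stayed higher with TNF.

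**Figure D1:**
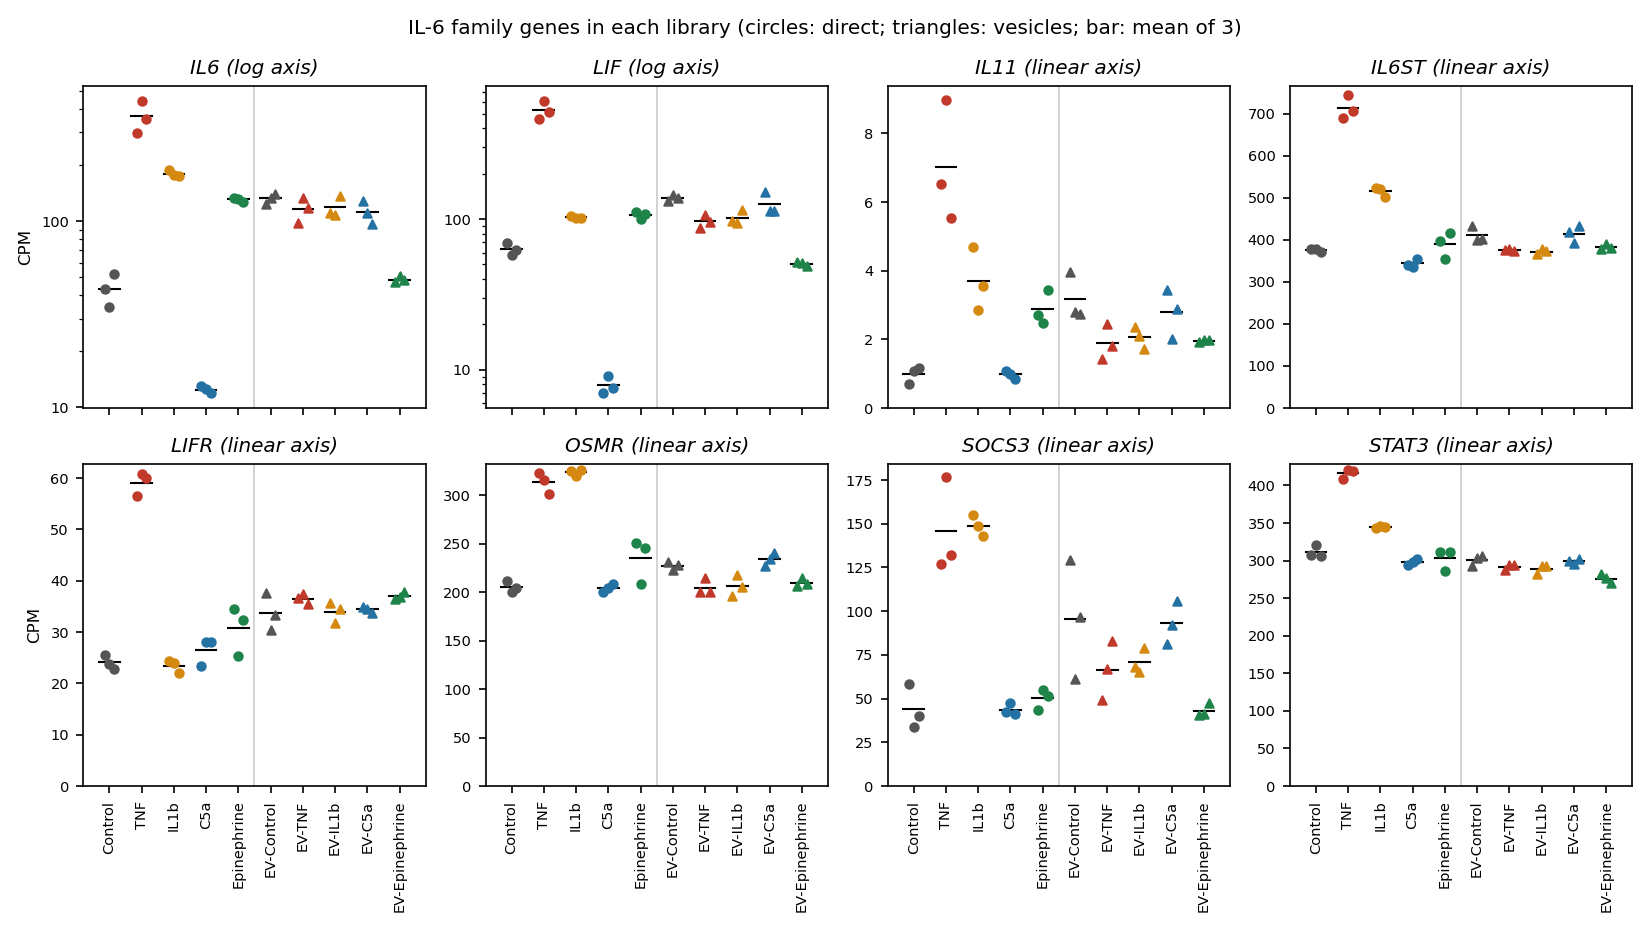
Each point is 1 library's level of a gene in CPM, with a log axis for IL6 and LIF and a linear axis from 0 for the other genes. Circles are the 5 direct groups, triangles the 5 vesicle groups, and a bar is the mean of 3 libraries. TNF libraries stand highest for IL6, LIF, IL11, IL6ST, LIFR and STAT3, and C5a libraries lowest for IL6 and LIF.

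IL6 (ENSG00000136244, chromosome 7, 22725884 to 22732002 on GRCh38), the family's name-giving inflammatory cytokine, had levels of 43, 34.8 and 52 CPM in Control. Its TNF libraries held 299, 444 and 353 CPM and its IL1b libraries 189, 176 and 175 CPM. Epinephrine libraries held 134, 132 and 127 CPM, and C5a libraries 13, 12.5 and 11.9 CPM. No 2 of the 5 direct groups overlapped, with TNF highest, then IL1b, Epinephrine and Control, and C5a lowest. The mean rose 8.44-fold with TNF (log2 3.08, SE 0.16, adjusted p = 1.21e-08), 4.16-fold with IL1b (log2 2.07, adjusted p = 6.69e-07) and 3.03-fold with Epinephrine (log2 1.61, adjusted p = 2.1e-05). It was 3.48-fold lower with C5a (log2 -1.79, SE 0.19, adjusted p = 5.57e-05).

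LIF (ENSG00000128342, chromosome 22, 30240447 to 30246851), leukaemia inhibitory factor, signals through LIFR paired with gp130. Control libraries held 69.9, 57.8 and 61.9 CPM and TNF libraries 461, 610 and 514 CPM. The gene stood at 105, 102 and 102 CPM with IL1b and at 112, 99.6 and 108 CPM with Epinephrine, 2 groups that overlapped. In C5a cells it fell to 6.98, 9.04 and 7.63 CPM, below every other library of the study. The mean rose 8.36-fold with TNF (log2 3.06, SE 0.10, adjusted p = 2e-12), 1.63-fold with IL1b (log2 0.71, adjusted p = 3.99e-05) and 1.69-fold with Epinephrine (log2 0.76, adjusted p = 6e-05). With C5a it was 8.02-fold lower (log2 -2.99, SE 0.13, adjusted p = 1.01e-09). Across all 10 groups the means of LIF spanned 67-fold, more than the 29.3-fold span of IL6 and the 7.17-fold span of IL11.

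IL11 (ENSG00000095752, chromosome 19, 55364389 to 55370463), a stromal cytokine that also signals through gp130, was the least abundant of the 8 transcripts per length. Its levels were 0.687, 1.07 and 1.18 CPM in Control, 6.54, 8.97 and 5.54 CPM with TNF and 4.69, 2.85 and 3.56 CPM with IL1b. Epinephrine libraries held 2.72, 2.49 and 3.44 CPM, and C5a libraries 1.09, 1 and 0.853 CPM. Control and C5a overlapped, and so did IL1b and Epinephrine, while TNF stood above both. IL11 rose with TNF (log2 2.84, SE 0.26, adjusted p = 9.73e-12), IL1b (log2 1.93, adjusted p = 2.96e-07) and Epinephrine (log2 1.58, adjusted p = 4.6e-05). With C5a the difference was 0.02 (SE 0.33), so that a change of moderate size could not be told from none at this depth.

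Group means of the receptor chains spanned 1.58-fold (OSMR) to 2.53-fold (LIFR) over the 10 groups. IL6ST (ENSG00000134352, chromosome 5, 55935095 to 55994993), which encodes gp130, held 379, 377 and 370 CPM in Control, 689, 745 and 706 CPM with TNF and 523, 521 and 501 CPM with IL1b. The 3 groups did not overlap, and the rise was 1.9-fold with TNF (log2 0.92, SE 0.05, adjusted p = 1.17e-18) and 1.37-fold with IL1b (log2 0.46, adjusted p = 3.01e-10). In C5a cells IL6ST stood at 341, 336 and 355 CPM, below the Control libraries, but the difference of -0.12 (SE 0.05) did not pass (adjusted p = 0.0702). It passed in 3 of the other settings, with an adjusted p of 0.00426 when only C5a and Control were fitted. Epinephrine libraries held 396, 355 and 415 CPM, a difference of 0.06 that did not pass; without the second Epinephrine library it was 0.12 with an adjusted p of 0.0114.

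LIFR (ENSG00000113594, chromosome 5, 38474963 to 38608354), the chain that LIF and oncostatin M use with gp130, rose with TNF and not detectably with IL1b. It stood at 25.6, 23.8 and 22.9 CPM in Control, 56.5, 60.8 and 60 CPM with TNF and 24.3, 23.9 and 22 CPM with IL1b. TNF libraries lay above all others, and IL1b libraries overlapped Control. LIFR rose 2.45-fold with TNF (log2 1.29, SE 0.09, adjusted p = 7.66e-15), and with IL1b it differed by -0.04 (SE 0.09, adjusted p = 0.779). With Epinephrine, at 34.4, 25.3 and 32.4 CPM, LIFR rose by 0.36 (adjusted p = 0.00307), although the second library lay within the Control range. C5a libraries held 23.4, 28.1 and 28 CPM, a difference of 0.14 that did not pass.

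OSMR (ENSG00000145623, chromosome 5, 38845858 to 38945596), the oncostatin M receptor chain, lies 237503 bases from LIFR on the same chromosome. Control libraries held 212, 200 and 205 CPM, TNF libraries 323, 316 and 302 CPM and IL1b libraries 325, 320 and 326 CPM. TNF and IL1b overlapped, and both lay above Control. The rise was 0.61 on the log2 scale with TNF (SE 0.05, adjusted p = 1.47e-12) and 0.66 with IL1b (SE 0.05, adjusted p = 3.7e-13). Epinephrine raised OSMR by 0.20 (adjusted p = 0.0028), with 251, 209 and 246 CPM and the second library again within the Control range. C5a libraries, at 200, 205 and 209 CPM, overlapped Control. OSMR shares 229 exonic bases with RICTOR on the opposite strand, and the sources used here do not say whether counting used the strand.

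STAT3 (ENSG00000168610, chromosome 17, 42313324 to 42388568), the pathway's main transcription factor, had group means that spanned 1.51-fold, the smallest span of the 8 genes. It held 307, 321 and 306 CPM in Control, 409, 421 and 419 CPM with TNF and 343, 346 and 345 CPM with IL1b. The groups did not overlap, and STAT3 rose by 0.42 with TNF (SE 0.04, adjusted p = 1.42e-10) and by 0.16 with IL1b (adjusted p = 0.00266). The IL1b call was lost when libraries were scaled by their totals (log2 0.07, adjusted p = 0.148). C5a (294, 298 and 302 CPM) and Epinephrine (311, 286 and 312 CPM) differed from Control by -0.05 and -0.03, and neither passed.

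SOCS3 (ENSG00000184557, chromosome 17, 78356778 to 78360077), the feedback inhibitor, rose to about the same level with both cytokines. Control libraries held 58.1, 33.5 and 40.2 CPM, TNF libraries 127, 177 and 132 CPM and IL1b libraries 155, 149 and 143 CPM. The TNF and IL1b ranges overlapped and stood clear of Control. SOCS3 rose 3.32-fold with TNF (log2 1.73, SE 0.19, adjusted p = 1.34e-05) and 3.39-fold with IL1b (log2 1.77, SE 0.19, adjusted p = 1.48e-05). C5a libraries held 42.2, 47.6 and 41 CPM and Epinephrine libraries 43.7, 54.9 and 51.6 CPM, both overlapping Control, with differences of -0.00 (SE 0.20) and 0.20 (SE 0.20). In the Epinephrine cells, where IL6, LIF and IL11 rose, the SOCS3 difference did not pass (adjusted p = 0.539).

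IL1b and TNF cells were also compared with each other. In IL1b cells 6 of 8 genes were lower than in TNF cells, against 21.4% of all genes lower and 19.9% higher. The differences were -2.35 for LIF (SE 0.10, adjusted p = 5.36e-11), -1.33 for LIFR (SE 0.09, adjusted p = 7.25e-15), -1.01 for IL6, -0.92 for IL11, -0.46 for IL6ST and -0.26 for STAT3. The 2 others were OSMR (0.05, SE 0.05) and SOCS3 (0.04, SE 0.175), which did not pass. Scaling by library totals moved the median of all genes to 0.21 in this comparison and the share of calls that were higher from 48.1% to 76.1%. Under it OSMR was higher in IL1b cells (0.25, adjusted p = 9.86e-05) and the STAT3 difference did not pass (-0.07, adjusted p = 0.164).

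**Figure D2:**
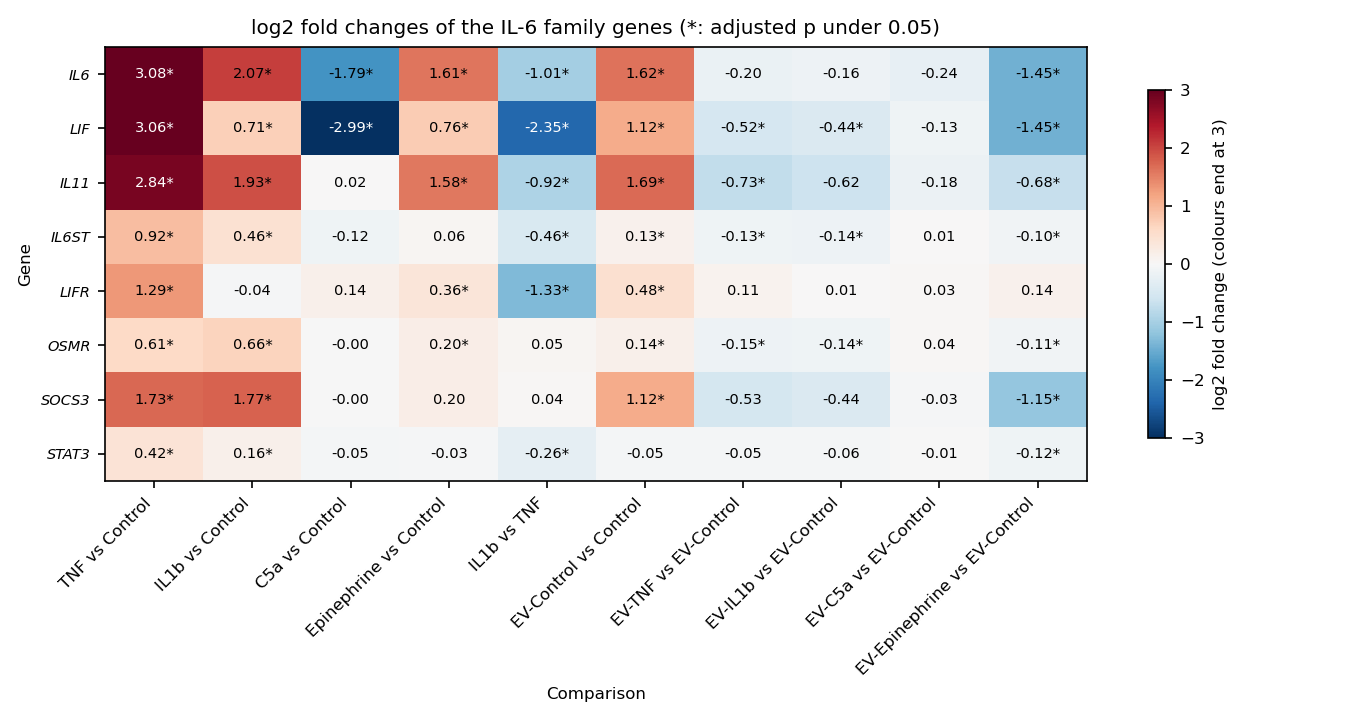
Each cell is the log2 fold change of 1 gene (rows) in 1 comparison (columns), coloured from blue (lower in the first-named group) to red (higher), with an asterisk for an adjusted p under 0.05. IL6 and LIF are red with TNF (3.08 and 3.06) and blue with C5a (-1.79 and -2.99), and 7 of 8 genes carry an asterisk in the EV-Epinephrine column, all of them negative.

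The vesicle groups had their own control, and cells given vesicles of unstimulated cells already differed from cells in medium. In EV-Control 7 of 8 genes were higher than in Control, against 12.1% of the 16691 genes tested higher and 9.8% lower. The split of all calls depended on the scaling, with 55.3% higher under the trimmed mean and 42.6% under library totals. IL6 held 124, 134 and 140 CPM in EV-Control, 3.07-fold over Control (log2 1.62, SE 0.15, adjusted p = 5.84e-08). LIF held 132, 144 and 137 CPM, 2.18-fold over Control (log2 1.12, SE 0.12, adjusted p = 3.15e-07). IL11, at 3.96, 2.81 and 2.74 CPM, rose by 1.69 (SE 0.28, adjusted p = 3.86e-06). All 3 ligands lay above every Control library, and IL6 and IL11 in EV-Control overlapped the Epinephrine libraries.

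Among the receptor chains, LIFR held 37.7, 30.4 and 33.3 CPM in EV-Control and rose by 0.48 (SE 0.08, adjusted p = 8.06e-06). IL6ST (433, 399 and 401 CPM) and OSMR (231, 223 and 228 CPM) rose by 0.13 (adjusted p = 0.0168) and 0.14 (adjusted p = 0.0179). These 2 small rises did not pass with scaling by library totals (adjusted p = 0.0782 and 0.085) or without the first EV-Control library (adjusted p = 0.138 and 0.0505). IL6ST also did not pass without Control library 3 (0.0523), nor OSMR without Control library 2 (0.0831). SOCS3 spread widely in EV-Control, at 129, 61 and 96.7 CPM, and rose by 1.12 (SE 0.23, adjusted p = 0.00115). When only these 2 groups were fitted, its adjusted p was 0.131. STAT3, at 293, 304 and 306 CPM, differed by -0.05 and did not pass. Medium alone and vesicles of unstimulated cells are the only treatment names the labels give for these groups, so the vesicles and any other difference in how the 2 sets were handled cannot be told apart.

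With vesicles of stimulated cells, none of the 8 genes passed as higher than in EV-Control, in any of the 4 comparisons. EV-Epinephrine had the largest number of lower genes, 7 of 8, against 10.5% of all genes lower and 9.12% higher. The counts were 4 of 8 lower in EV-TNF, against 7.42% lower and 5.9% higher, and 3 of 8 lower in EV-IL1b, against 8.14% lower and 6.49% higher. In EV-C5a 0 of 8 passed in edgeR's test, 0 had an unadjusted p under 0.05 (the smallest was 0.1) and 0 passed with DESeq2, while 0.0126% of all genes were higher and 0.0377% lower. The same 3 EV-Control libraries enter all 4 comparisons. With scaling by library totals, the share of all EV-Epinephrine calls that were higher went from 46.4% to 60.2%, and 4 of 8 genes stayed lower.

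With EV-Epinephrine, IL6 held 47.2, 50.6 and 48.1 CPM and LIF 51.9, 50.9 and 48.5 CPM, less than every EV-Control library. Both were 2.73-fold lower, IL6 by -1.45 (SE 0.14, adjusted p = 3.7e-05) and LIF by -1.45 (SE 0.13, adjusted p = 1.6e-05). The IL6 libraries overlapped those of Control in medium, and LIF lay below them, a difference that was not tested. SOCS3, at 40.6, 41 and 47.3 CPM, fell by 1.15 on the log2 scale (SE 0.27, adjusted p = 0.0113), a call that was lost when only the 2 groups were fitted (adjusted p = 0.0931). STAT3, at 282, 277 and 270 CPM, fell by 0.12 (adjusted p = 0.0046).

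Smaller differences in EV-Epinephrine were those of IL11 (1.92, 1.99 and 1.98 CPM, log2 -0.68, adjusted p = 0.0491), IL6ST (379, 389 and 380 CPM, log2 -0.10, adjusted p = 0.0251) and OSMR (207, 215 and 209 CPM, log2 -0.11, adjusted p = 0.0299). None of these 3 groups overlapped EV-Control, but the calls were not stable. IL11 did not pass without the first or second EV-Control library or any one EV-Epinephrine library (adjusted p 0.0527 to 0.267). IL6ST did not pass without library 1 of EV-Control or library 1 or 3 of EV-Epinephrine (0.0895 to 0.235). OSMR did not pass without library 1 or 3 of either group (0.0601 to 0.123). LIFR, at 36.5, 36.9 and 37.8 CPM, differed by 0.14 and did not pass, and without the first EV-Control library it was higher by 0.22 (adjusted p = 0.0388).

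EV-TNF and EV-IL1b cells had less LIF than EV-Control. LIF held 86.8, 106 and 96.1 CPM in EV-TNF and 96.5, 93.7 and 114 CPM in EV-IL1b, all below the EV-Control libraries. These levels still lay above the Control libraries in medium (57.8 to 69.9 CPM), a difference that was not tested. LIF fell by 0.52 with EV-TNF (SE 0.12, adjusted p = 0.0186) and by 0.44 with EV-IL1b (SE 0.12, adjusted p = 0.0355). The EV-TNF call was lost without the second EV-Control library (0.0628) or without EV-TNF library 1 (0.0752) or 3 (0.0588). The EV-IL1b call was lost without any one EV-Control library or without the first or second EV-IL1b library (0.0694 to 0.129). LIFR and STAT3 in these 2 groups differed from EV-Control by -0.06 to 0.11, and neither passed.

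IL6 libraries in these groups (97.8, 133 and 118 CPM in EV-TNF, 111, 108 and 137 CPM in EV-IL1b) overlapped EV-Control, with differences of -0.20 and -0.16 (SE 0.13 each) that did not pass. All of them lay above the Control libraries in medium (34.8 to 52 CPM), a difference that was not tested. IL6ST fell by 0.13 with EV-TNF (375, 377 and 374 CPM, adjusted p = 0.00436) and by 0.14 with EV-IL1b (366, 378 and 373 CPM, adjusted p = 0.00173). The first of these did not pass without the first EV-Control library (0.0816). OSMR fell by 0.15 with EV-TNF (200, 215 and 200 CPM, adjusted p = 0.00344) and by 0.14 with EV-IL1b (196, 218 and 206 CPM, adjusted p = 0.00835), the latter not without the first EV-IL1b library (0.112). IL11 fell by 0.73 with EV-TNF (1.42, 2.45 and 1.82 CPM, adjusted p = 0.0425), a call lost in 8 of 13 other settings, among them without library 1 or 2 of EV-Control or library 1 or 3 of EV-TNF (0.0502 to 0.255). With EV-IL1b (2.36, 2.09 and 1.71 CPM) it differed by -0.62 and did not pass (adjusted p = 0.094). SOCS3 (49.2, 67.1 and 82.7 CPM in EV-TNF, 67.9, 65.4 and 78.8 CPM in EV-IL1b) overlapped EV-Control in both groups and did not pass, while without the second EV-Control library it was lower with EV-TNF (log2 -0.77, adjusted p = 0.047).

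In EV-C5a cells, IL6 held 129, 110 and 96.5 CPM and LIF 152, 113 and 113 CPM. The differences from EV-Control were -0.24 (SE 0.13) for IL6 and -0.13 (SE 0.12) for LIF. The other 6 genes differed by -0.18 to 0.04.

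The response to vesicles of a stimulus (against EV-Control) and the response to the stimulus itself (against Control) were compared by testing their difference in 1 fit of all 30 libraries. The vesicle dose is not given and EV-Control itself differed from Control, so the 2 responses are not set at like doses or baselines. For TNF all 8 genes had a lower vesicle response than direct response, against 23.4% of all genes lower and 21.3% higher. The difference was -3.58 for LIF (SE 0.17, adjusted p = 4.09e-14), -3.57 for IL11, -3.27 for IL6 and -0.46 for STAT3, the smallest. For IL1b 7 of 8 were lower, against 18.3% lower and 16.9% higher, with IL11 at -2.54, IL6 at -2.22 and SOCS3 at -2.19. LIFR was the exception (0.05, SE 0.12). For Epinephrine 6 of 8 were lower, against 12.5% lower and 11.7% higher, and the direct and vesicle responses of IL6 were of opposite sign, 1.61 and -1.45, a difference of -3.05 (SE 0.21, adjusted p = 4.5e-10). LIF went the same way, with 0.76 and -1.45. The smallest of the 6, IL6ST (-0.15, adjusted p = 0.0475), did not pass in 12 of 19 other settings, and without Epinephrine library 2 LIFR (-0.34, adjusted p = 0.0142) and STAT3 (-0.13, adjusted p = 0.0403) passed as well. For C5a 2 of 8 were higher, LIF (2.88, SE 0.20, adjusted p = 2.02e-09) and IL6 (1.55, SE 0.24, adjusted p = 0.000122), against 5.87% of all genes higher and 6.05% lower. The direct responses of LIF and IL6 to C5a were -2.99 and -1.79, and the vesicle responses, -0.13 and -0.24, did not pass. Under scaling by library totals the median of all genes moved to 0.31 for TNF and 0.11 for IL1b, and the share of calls that were higher moved from 47.7% to 76.7% and from 48.1% to 62.4%. STAT3 then did not pass for IL1b (adjusted p = 0.0707).

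**Figure D3:**
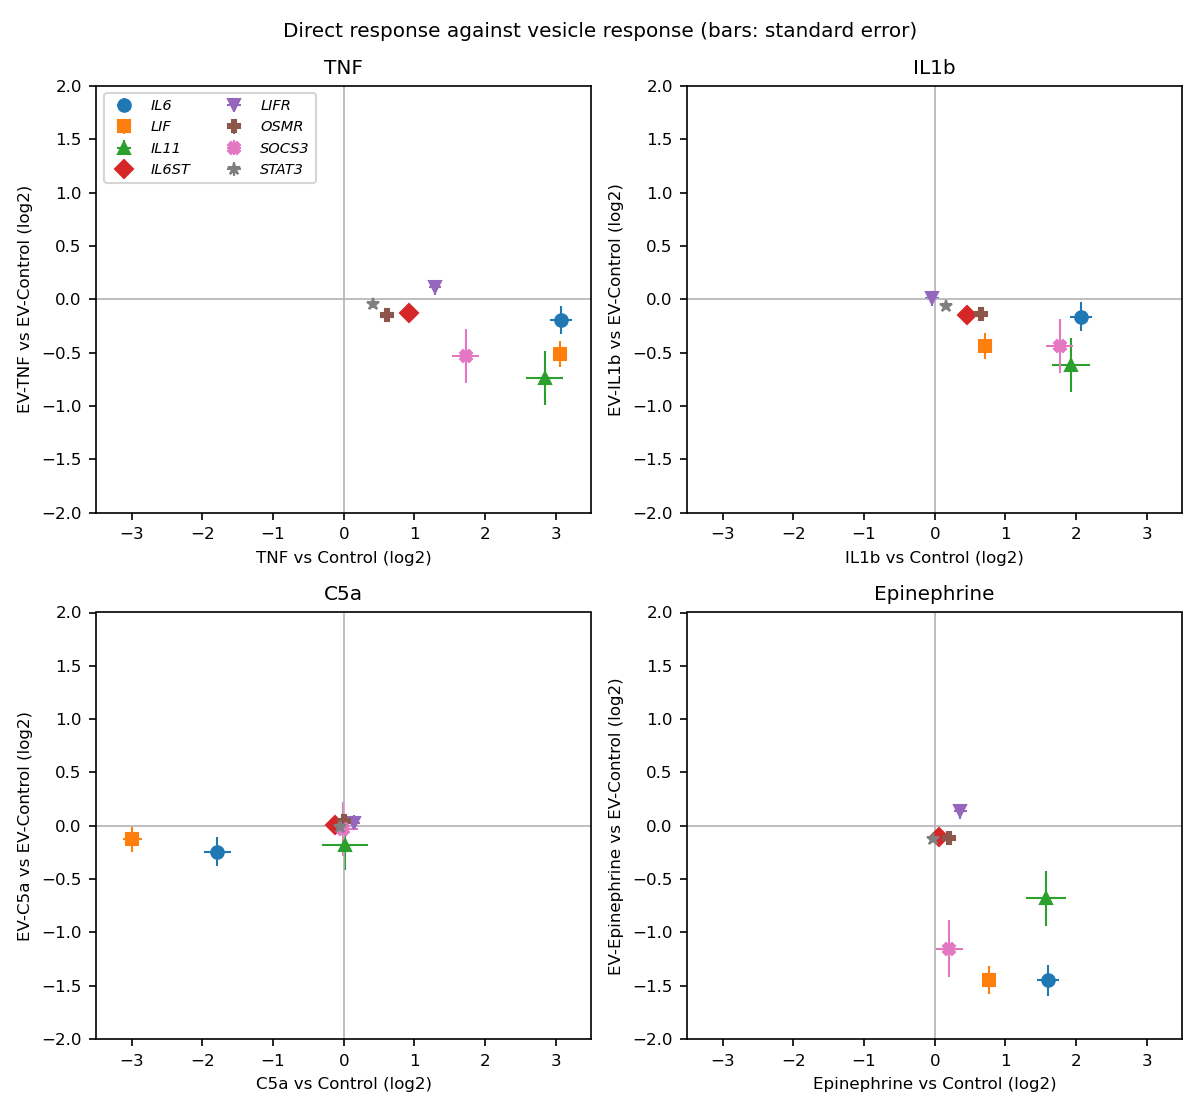
Each point is a gene, with the direct response (stimulus against Control) on the horizontal axis and the vesicle response (vesicles of that stimulus against EV-Control) on the vertical axis, both as log2 fold changes with standard errors as bars. With TNF the points spread to 3.08 along the horizontal axis and stay between -0.73 and 0.11 on the vertical axis, and with Epinephrine IL6 and LIF lie right of 0 and near -1.45.

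The balance between ligands differed between groups. The ratio of LIF to IL6 counts, which scaling by library cannot change, was chosen for description after the values were seen and carries no test. It was 1.62, 1.66 and 1.19 in Control and 1.54, 1.37 and 1.46 in TNF, so the TNF libraries lay within the Control range. In IL1b cells it was 0.557, 0.577 and 0.581, and in C5a cells 0.538, 0.725 and 0.641, all below the other direct groups. Epinephrine libraries lay between, at 0.838, 0.753 and 0.853. In the vesicle groups the mean ran from 0.836 in EV-TNF to 1.12 in EV-C5a. The ratio of SOCS3 to STAT3 counts averaged 0.142 ± 0.0434 (SD, n = 3) in Control, 0.349 ± 0.0627 in TNF, 0.432 ± 0.0193 in IL1b, 0.319 ± 0.121 in EV-Control and 0.156 ± 0.0171 in EV-Epinephrine.

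**Figure D4:**
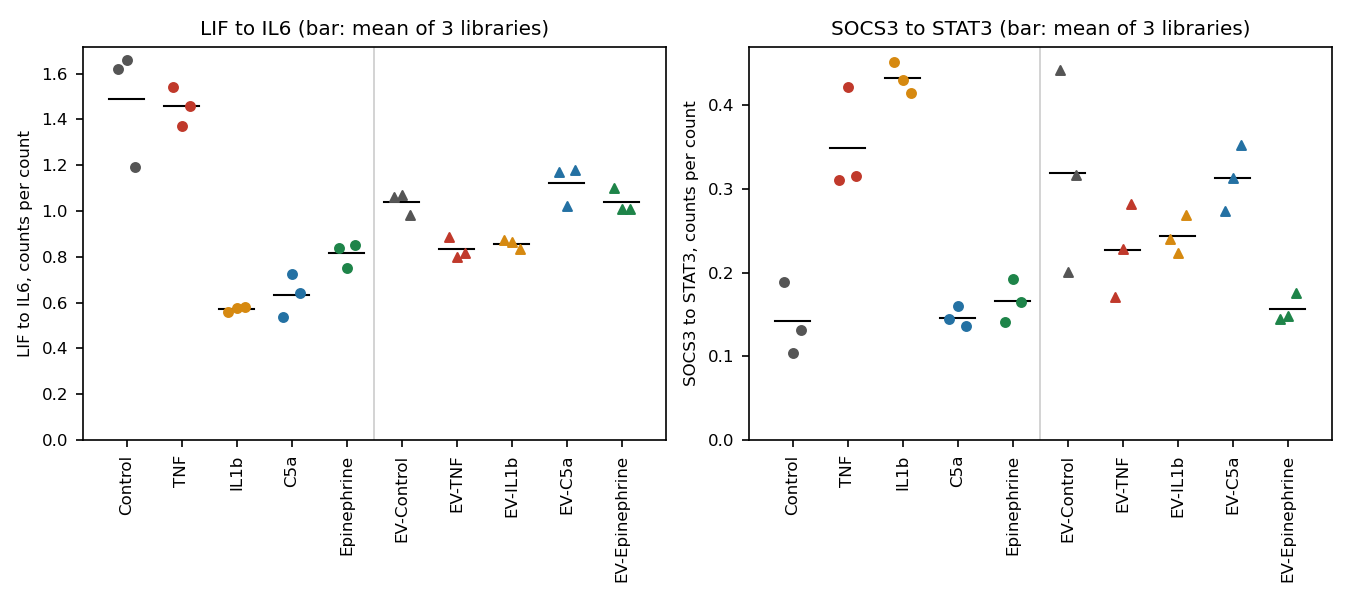
The left panel plots the ratio of LIF to IL6 counts and the right panel that of SOCS3 to STAT3 counts in each library, on linear axes from 0, with the mean of 3 libraries as a bar. The LIF to IL6 ratio lies at 1.19 or more in Control and TNF and at or under 0.725 in IL1b and C5a.

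Levels of different genes were compared per kilobase of merged exons (CPM per kb, mean ± SD, n = 3). In Control, IL6ST (40.4 ± 0.505) and STAT3 (35.3 ± 0.927) were highest, followed by OSMR (28.7 ± 0.842), IL6 (20.9 ± 4.14), SOCS3 (16.1 ± 4.65), LIF (15.9 ± 1.55), LIFR (2.03 ± 0.117) and IL11 (0.366 ± 0.0967). SOCS3 and LIF did not differ beyond their spread. With TNF, IL6 (177 ± 35.6) and LIF (133 ± 19) were highest, before IL6ST (76.7 ± 3.08), while IL11 (2.63 ± 0.66) was still the lowest. With C5a, LIF stood at 1.99 ± 0.266, next to LIFR at 2.23 ± 0.225. With the longest transcript as the length, STAT3 in Control stood at 61.7 ± 1.62, above IL6ST at 41.5 ± 0.518, so the order of these 2 depends on the length used.

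The rest of the pathway was read from 46 other genes in 5 lists, 40 of which had enough counts in the direct fit. With TNF 25 rose and 5 fell, with IL1b 17 rose and 9 fell, with Epinephrine 12 rose and 7 fell, and with C5a 6 rose and 9 fell. Over all genes the shares that rose and fell were 27.5% and 25.3% with TNF, 24% and 22.6% with IL1b, 13.5% and 11.8% with Epinephrine and 11.8% and 10.8% with C5a, so the fall with IL1b and the rise with C5a were near the background. The median over the tested genes was 0.53 with TNF and 0.15 with IL1b, beside -0.01 over all genes in each. Of the other ligands, OSM had at most 7 counts in a library, IL27 1 and IL31 0. EBI3, a subunit of interleukin 27, rose most, from 1.43, 1.23 and 1.52 CPM in Control to 46.1, 51 and 46.9 CPM with TNF (log2 5.10, SE 0.14, adjusted p = 4.64e-27) and 7.94, 7.44 and 7.71 CPM with IL1b (log2 2.47). It was lower with C5a (log2 -1.27, SE 0.27) and Epinephrine (log2 -1.62, SE 0.28), both on few counts. C5a libraries held 9, 12 and 12 EBI3 counts and Epinephrine libraries 11, 7 and 8, against 27, 23 and 27 in Control. CLCF1, another ligand of the family, did not pass in any comparison between groups.

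IL6R, the ligand-specific chain for IL-6, went the other way from IL6 with TNF. It held 64.4, 61.3 and 61.6 CPM in Control and 37.9, 38 and 34.9 CPM with TNF, a fall of 0.76 on the log2 scale (SE 0.06, adjusted p = 1.9e-13). It rose with IL1b (log2 0.33, adjusted p = 7.22e-06) and with C5a, where IL6 was lowest (89.2, 84.4 and 89.6 CPM, log2 0.50, adjusted p = 1.22e-08). With Epinephrine the difference was 0.08 and did not pass. IL11RA had 10 to 46 counts in a library and did not pass in any comparison between groups.

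All 6 kinases and other STATs passed with TNF, 5 higher and 1 lower, where 27.5% of all genes rose and 25.3% fell. JAK2 rose by 1.89 (from 26, 24.8 and 24.5 to 92.8, 95.5 and 90.4 CPM, adjusted p = 7.63e-23), STAT5A by 1.94, JAK1 by 0.55 and TYK2 by 0.46, and STAT5B fell by 0.27. With IL1b, JAK2 rose by 0.89 and JAK1 by 0.23, and TYK2 did not pass (-0.05). Among the inhibitors, SOCS1 rose by 2.34 with TNF (1.06, 0.907 and 1.52 to 6.81, 5.58 and 5.25 CPM, adjusted p = 1.3e-08) and by 1.01 with IL1b. CISH fell by 1.83 with TNF, on only 10, 5 and 4 counts against 15, 30 and 30 in Control. ADAM17, a protease that sheds the IL-6 receptor, rose by 0.75 with TNF (adjusted p = 2.97e-12) and fell by 0.31 with C5a (adjusted p = 0.00064).

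Genes known to respond to STAT3 rose in 12 of 15 cases with TNF and 8 of 15 with IL1b, where 4 fell. Of all genes 27.5% rose with TNF, and with IL1b 24% rose and 22.6% fell, so the 4 that fell were near the background. With Epinephrine 8 of 15 rose and 1 fell, against 13.5% and 11.8% of all genes. With C5a 2 rose and 5 fell, against 11.8% and 10.8%, so the 2 that rose were near the background. In EV-Control 10 of 15 were higher than in Control and 1 lower, against 12.1% and 9.8%. Against EV-Control, 9 of 14 were lower and 1 higher in EV-Epinephrine, where 10.5% and 9.12% of all genes were. EV-TNF had 8 lower and 3 higher (7.42% and 5.9%), and EV-IL1b 7 and 3 (8.14% and 6.49%). IRF1, a transcription factor of interferon and inflammatory responses, rose by 3.17 with TNF and by 1.14 with Epinephrine, and JUNB fell by 0.78 with IL1b and by 1.30 with C5a. Many of these genes also answer to other factors. SERPINA3 is counted among the 12, but its TNF libraries held only 3, 13 and 3 counts against 2, 0 and 0 in Control, too few for a fold.

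In EV-Control 16 of the 40 genes were higher than in Control and 4 lower, against 12.1% of all genes higher and 9.8% lower, so the lower count was near the background. IRF1 (log2 1.62, SE 0.20), SOCS1 (log2 1.64, SE 0.34), BCL6 (log2 0.94, SE 0.07) and IL6R (log2 0.41, SE 0.06) were higher. EBI3 (log2 -1.39, SE 0.31) was lower, with only 12, 8 and 8 counts in EV-Control. SOCS1 held 4.86, 4.35 and 1.7 CPM and IRF1 192, 108 and 92.8 CPM in EV-Control, so the libraries of this group differed widely. Against EV-Control, 14 of the 39 genes tested were lower and 2 higher in EV-Epinephrine, 13 lower and 4 higher in EV-TNF, and 10 lower and 5 higher in EV-IL1b. The shares of all genes lower and higher were 10.5% and 9.12% in EV-Epinephrine, 7.42% and 5.9% in EV-TNF, and 8.14% and 6.49% in EV-IL1b. BCL6, a repressor that STAT3 can induce, fell from 129, 123 and 121 CPM in EV-Control to 45, 55 and 46.8 CPM in EV-Epinephrine (log2 -1.35, SE 0.06, adjusted p = 4.85e-20). It fell by 0.95 in EV-TNF and by 1.08 in EV-IL1b. FOS, another of the STAT3-responsive genes, rose by 2.04 in EV-TNF (adjusted p = 0.043) and by 2.22 in EV-IL1b (adjusted p = 0.0287). Its EV-Control libraries spread widely, at 44.2, 104 and 355 CPM. SOCS1, an inhibitor of the JAK kinases, was lower in EV-TNF (log2 -1.58), EV-IL1b (log2 -1.13) and EV-Epinephrine (log2 -1.22), on few counts. EV-TNF libraries held 32, 23 and 14 SOCS1 counts, EV-IL1b libraries 28, 25 and 35 and EV-Epinephrine libraries 36, 31 and 17. EV-IL1b (1.61, 1.34 and 1.99 CPM) and EV-Epinephrine (1.87, 1.77 and 0.991 CPM) overlapped the third EV-Control library. In EV-C5a 0 of 39 passed in edgeR's test, while 6 had an unadjusted p under 0.05.

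**Figure D5:**
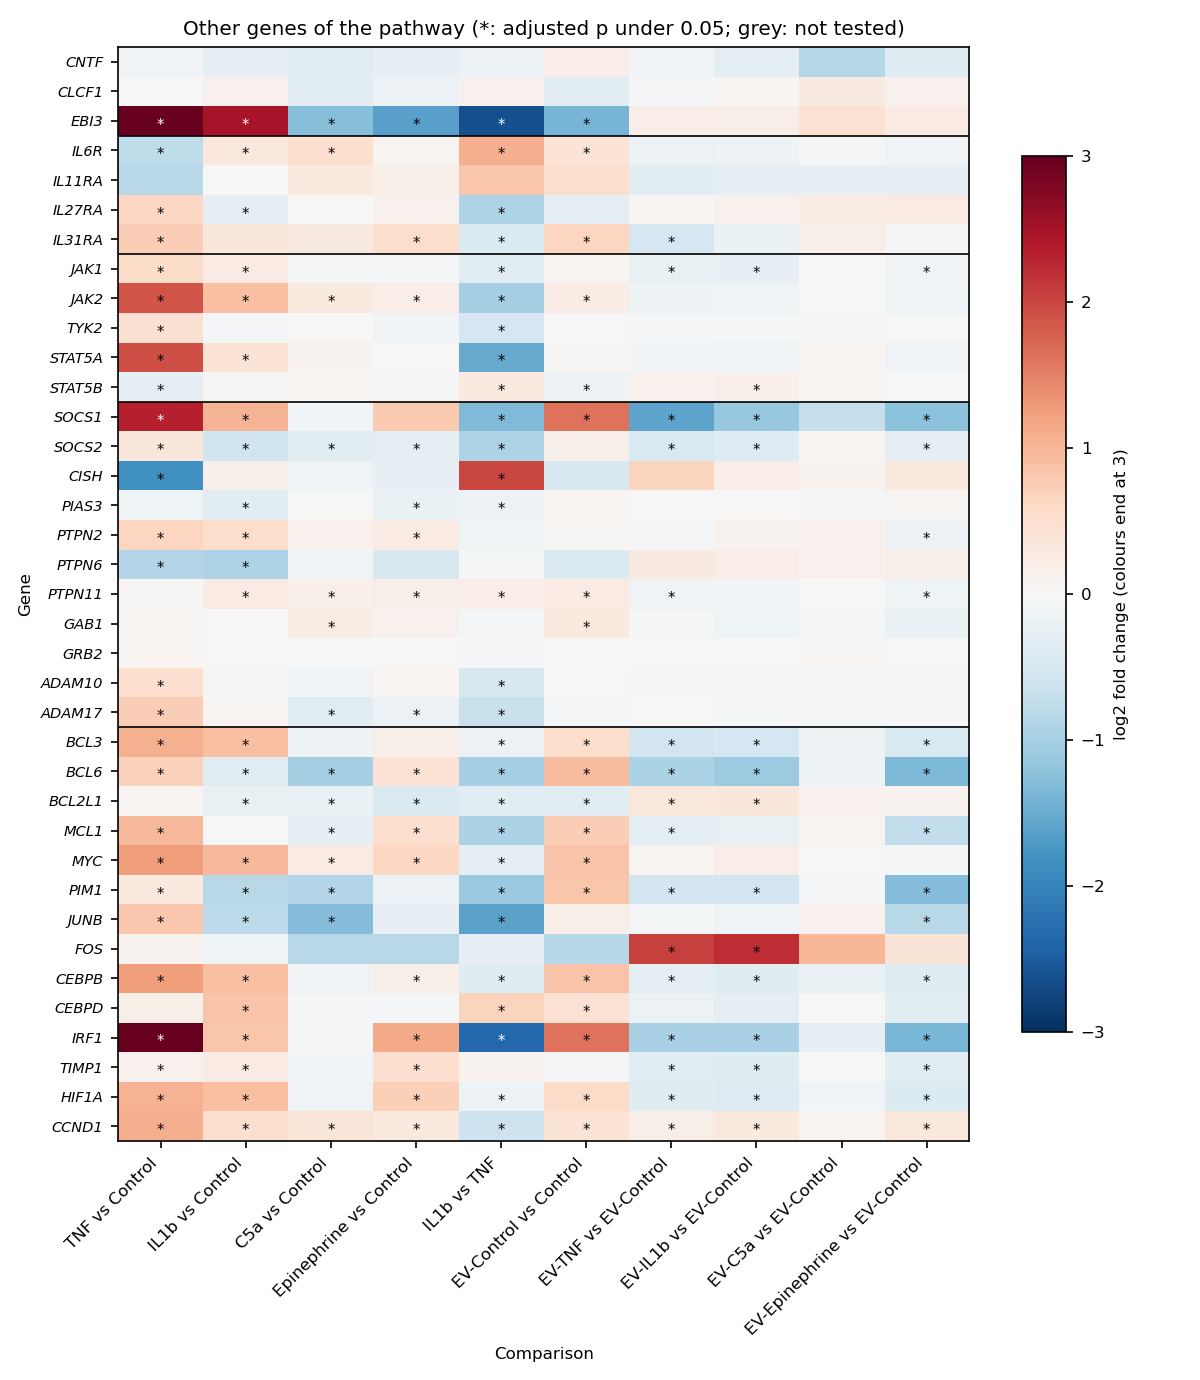
Rows are the other genes of the pathway, in the order ligands, receptor chains, kinases and other STATs, inhibitors with adaptors and sheddases, and STAT3-responsive genes, with lines between the lists. Columns are comparisons, colour is the log2 fold change, and an asterisk marks an adjusted p under 0.05; SERPINA3 is left out for its low counts, and not every gene counted in the lists is drawn. The colour scale is cut, so EBI3 (5.10) and IRF1 (3.17) with TNF share the deepest red. IL6R is blue with TNF (-0.76) and red with C5a (0.50), and the EV-C5a column holds no asterisk.

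Genes whose 10 group means of log2 CPM ran most like those of each member were sought among 11048 genes, as a description with no test. Means of 10 groups of 1 experiment share libraries and scaling, and the TNF group is the highest for most of them. For IL6 they were CCL20 (Pearson r = 0.96), IL1B (0.96) and PNP (0.93), and for LIF they were WAKMAR2 (0.97), ETS2 (0.96) and EREG (0.94). CCL20 ranged from a mean of 0.138 CPM in C5a to 23.9 CPM in TNF, and EREG from 0.461 to 21.7 CPM in the same groups. IL11 was closest to UBAP1, IL1B and SLC38A2 (0.96 each), IL6ST to B4GALT1, KDM5C and PDLIM4 (0.99 each), and LIFR to EMP3, IL15 and LITAF (0.96, 0.96 and 0.95). OSMR was closest to XRN2, CEBPZ and SBNO2 (0.99, 0.99 and 0.98), SOCS3 to CNOT2, SDC4 and DGKE (0.97, 0.96 and 0.95), and STAT3 to RFTN1, C1S and GPRC5B (0.99 each). Among the 8 members, IL6 and LIF were the most alike pair by Pearson r (0.96) and LIFR and OSMR the least (0.24), while by Spearman's rho they were IL6 and IL11 (0.93) and LIFR and STAT3 (-0.33).

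Antisense genes overlap some members, and without a stated strand setting their reads cannot be told apart. The antisense gene AC004264.1 at LIF had 5 to 86 counts in a library and LIFR-AS1 at LIFR 2 to 20. At IL6, AC073072.1 had 3 to 32 counts, and STEAP1B, which shares 46 exonic bases with IL6 on the opposite strand, 435 to 1066 counts.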

How the data were processed

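The values the authors deposited are raw counts, 1 whole number per gene and library, in a single table of 30 libraries without normalization. Per the labels' protocols, a NEBNext Ultra RNA kit was used on 1 ng of RNA purified by RNeasy. The submitters' processing notes name FastQC, STAR, the genome build hg38, R 4.4.1 and DESeq2. The counting program, the annotation and the strand setting are not given in the sources used here. The labels do not divide the libraries into batches, which does not show that all were handled together. Of 63147 lines, 4 had no gene ID, 2 genes whose lines held no counts (TTN and ANK2) were left out, and 3 repeated IDs with identical counts were kept once.

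Counts were tested in R 4.3.3 with edgeR 4.0.16: filterByExpr at default settings, trimmed-mean (TMM) factors, the quasi-likelihood test with robust dispersion, two-sided, Benjamini-Hochberg adjustment over all genes of a comparison and a threshold of 0.05. The 4 stimuli against Control and IL1b against TNF used the 15 direct libraries (15908 genes), the vesicle comparisons the 15 vesicle libraries (15918 genes), and EV-Control against Control and the response differences all 30 (16691 genes). Standard errors are the fold change over the root of the F statistic. The steps were tested on simulated data. Gene lengths and positions come from GENCODE 29, since the table holds no lengths. Molecular identifiers are not described, so depth covers counting error only.

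The members, pathway lists, markers and comparisons were chosen with earlier results of these data known. By rule, pathway genes could be named where they were among the 2 that rose most or the 2 that fell most of a list in a comparison, or were IL6R, IL11RA, JAK1, JAK2, TYK2, SOCS1, OSM or CLCF1. Some genes that the rule allows are not reported here, though the list counts include them. The text gives examples of them, some also in comparisons where they did not lead. SERPINA3, IL27 and IL31 are named for their low counts. The naming of similar genes used the 3 highest Pearson correlations among genes of at least 5 CPM in some group. Results were recomputed with DESeq2-style (RLE) factors, library totals, no low-count filter, a mean of at least 50 counts, DESeq2 1.42.0, replicate number as a term, fits of fewer or all libraries, and leaving out each library.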

Additional observations from a re-analysis of the deposited data

Results flagged for a closer look

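In 23 of 32 tests of a member, the response to vesicles of a stimulus differed from the response to the stimulus itself (edgeR's quasi-likelihood test of the difference, Benjamini-Hochberg adjustment over all genes). Over all genes, 23.4% were lower and 21.3% higher for TNF, and 18.3% and 16.9% for IL1b. The shares were 12.5% and 11.7% for Epinephrine and 6.05% and 5.87% for C5a. Values are the vesicle response minus the direct response on the log2 scale. The 2 responses share no libraries, but each set of 3 controls enters all 4 stimuli. Their doses and baselines are unlike, since the vesicle dose is not given and EV-Control differed from Control.

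For TNF the differences were -3.58 for LIF, -3.57 for IL11, -3.27 for IL6, -2.26 for SOCS3, -1.18 for LIFR, -1.05 for IL6ST, -0.76 for OSMR and -0.46 for STAT3. For IL1b they were -2.54 for IL11, -2.22 for IL6, -2.19 for SOCS3, -1.14 for LIF, -0.79 for OSMR, -0.60 for IL6ST and -0.20 for STAT3. For Epinephrine they were -3.05 for IL6, -2.25 for IL11, -2.20 for LIF, -1.34 for SOCS3, -0.31 for OSMR and -0.15 for IL6ST. The last had an adjusted p of 0.0475 and did not pass in 12 of 19 other settings. The SOCS3 difference had an adjusted p of 0.0511 when only the 4 groups compared were fitted. For C5a they were 2.88 for LIF and 1.55 for IL6. The direct responses there were -2.99 and -1.79, and the vesicle responses, -0.13 and -0.24, did not pass.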

How the results depend on the processing

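Of 72 member results past the threshold, 55 stayed past it in every setting tried and 0 turned sign. In EV-Epinephrine against EV-Control, the 7 members past the threshold became 4 with scaling by library totals and 4 in a fit of all 30 libraries, and 4 to 6 when 1 library was left out. Leaving out 1 library gave 2 to 4 members for EV-TNF and 1 to 3 for EV-IL1b. The cause was not tested. In EV-C5a, 8 of all genes passed, and 5 did with library totals, 73 without the low-count filter, 3 with a mean of at least 50 counts, 2 with DESeq2, 3 in the fit of all 30 libraries, 3 with only the compared groups and 2 to 175 when 1 library was left out (175 without EV-Control library 3). Of 40 member results that did not pass, 15 turned sign somewhere. For C5a against Control, OSMR was 0.009 and SOCS3 0.007 with library totals, 0.006 and 0.004 without the filter, and OSMR was 0 with the replicate block. STAT3 in EV-C5a was 0.001 with library totals. With 1 library left out the log2 ranges for C5a against Control were -0.179 to 0.169 (IL11), -0.02 to 0.028 (OSMR) and -0.166 to 0.259 (SOCS3). They were -0.073 to 0.022 for LIFR with IL1b, -0.049 to 0.012 for STAT3 with Epinephrine and -0.048 to 0.208 for SOCS3 in IL1b against TNF. In EV-C5a they were -0.358 to 0.012 (IL11), -0.023 to 0.051 (IL6ST), -0.045 to 0.112 (LIFR), -0.273 to 0.245 (SOCS3) and -0.029 to 0.006 (STAT3), and in EV-IL1b -0.065 to 0.091 (LIFR). For vesicle minus direct response they were -0.025 to 0.128 (LIFR, IL1b), -0.382 to 0.004 (IL11, C5a) and -0.291 to 0.239 (SOCS3, C5a). Same-numbered replicates did not deviate together (r from -0.0564 to 0.0599), so the numbers were not taken as pairs. With the replicate block, the adjusted p of IL11 became 0.0516 in EV-TNF and 0.0553 in EV-Epinephrine, that of LIF 0.07 in EV-IL1b and that of IL6ST in the Epinephrine response difference 0.0567, and no other member call changed. IL11, at 10 or fewer CPM, is the member most limited by depth.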
